A study of Mus musculus with 6 samples.

Results

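Triglyceride, the stored fat of adipocytes, is built by adding fatty acids one after another to glycerol 3-phosphate, and 10 genes of this route are described here. They were taken by symbol from the deposited gene table, which holds 18507 genes, and all 10 were found. The enzymes of the acylation chain are encoded by Gpam, Agpat2, Lpin1, Dgat1, Dgat2 and Mogat2. Glycerol 3-phosphate comes from Gpd1, Pck1 and Gk, and Aqp7 encodes a channel that lets glycerol through the adipocyte membrane. The RNA came from interscapular brown fat, a heat-producing depot, of C57BL/6 mice. There were 3 samples with the genotype label wild-type (WT) and 3 labelled Beclin1-/- (Beclin1_KO), which the series title calls an adipocyte-specific knockout. Both genotypes were given tamoxifen at 75 mg/kg by mouth for 5 days for Cre recombination, and mice were on chow at 22 °C. The treatment label of the samples nevertheless reads untreated. No Cre driver, age, sex or interval after tamoxifen is stated in the labels. Beclin 1 is part of a lipid kinase complex needed for autophagy, and the comparison asks what its loss from adipocytes does to the transcripts of the tissue.

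Glycerol 3-phosphate receives a first acyl chain from glycerol phosphate acyltransferases and a second from lysophosphatidate acyltransferases, lipins then remove the phosphate, and diacylglycerol acyltransferases add the last chain. A side route starts from monoacylglycerol and is best known from the intestine. Brown fat makes and breaks down triglyceride continuously, and fatty acids released from the droplets fuel heat production. In white fat glycerol kinase activity is low, so that released glycerol mostly leaves the cell, whereas brown fat can phosphorylate it again.

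Libraries held 44269031 to 60983193 counts. Becn1, the targeted gene, stood at 82.8, 86.4 and 89.2 CPM (read counts scaled to library depth) in WT replicates 1 to 3 and at 58.0, 53.7 and 42.7 in Beclin1_KO, a log2 fold change of -0.74 (SE 0.13, edgeR quasi-likelihood test, adjusted p = 0.00411). Summed over each list, adipocyte genes were lower and macrophage and fibroblast genes higher in every knockout library than in any WT library. Skeletal muscle markers varied from 724 to 20864 summed CPM within WT and from 1820 to 39884 within Beclin1_KO, with WT replicate 2 and Beclin1_KO replicate 1 highest.

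Most of the 10 transcripts described here were lower in Beclin1_KO tissue. The 10 genes were chosen with earlier results of these data known, so the shares over all genes are a background and not a test. Of the 10 genes, 8 fell, 0 rose, and Dgat1 and Gk did not pass, where passing means a Benjamini-Hochberg adjusted p below 0.05 over all 15347 genes tested. Among all genes tested 21.8% fell and 24.8% rose. All 8 fell at least 2-fold, as did 9.39% of all genes tested. A fall of at least 4-fold was seen for Dgat2, Gpd1, Agpat2, Mogat2 and Pck1, that is 5 of the 10, against 2.02% of all genes tested. The median log2 fold change of the 10 was -1.79, against 0.05 over all genes tested. The libraries of the genotypes did not overlap in CPM for 9 of the 10, Gk being the exception, against 59.7% of all genes in either direction and 28.2% with Beclin1_KO lower. Mogat2 had at least 10 counts in all WT libraries but in 1 knockout library, so it entered the test through the group in which it is high. Of the other 9 genes 7 fell, each at least 2-fold, and 4 fell at least 4-fold. Together the 10 genes took 1.94%, 2.07% and 2.56% of all counts in the WT libraries and 0.399%, 0.376% and 0.692% in the knockout libraries.

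**Figure D1:**
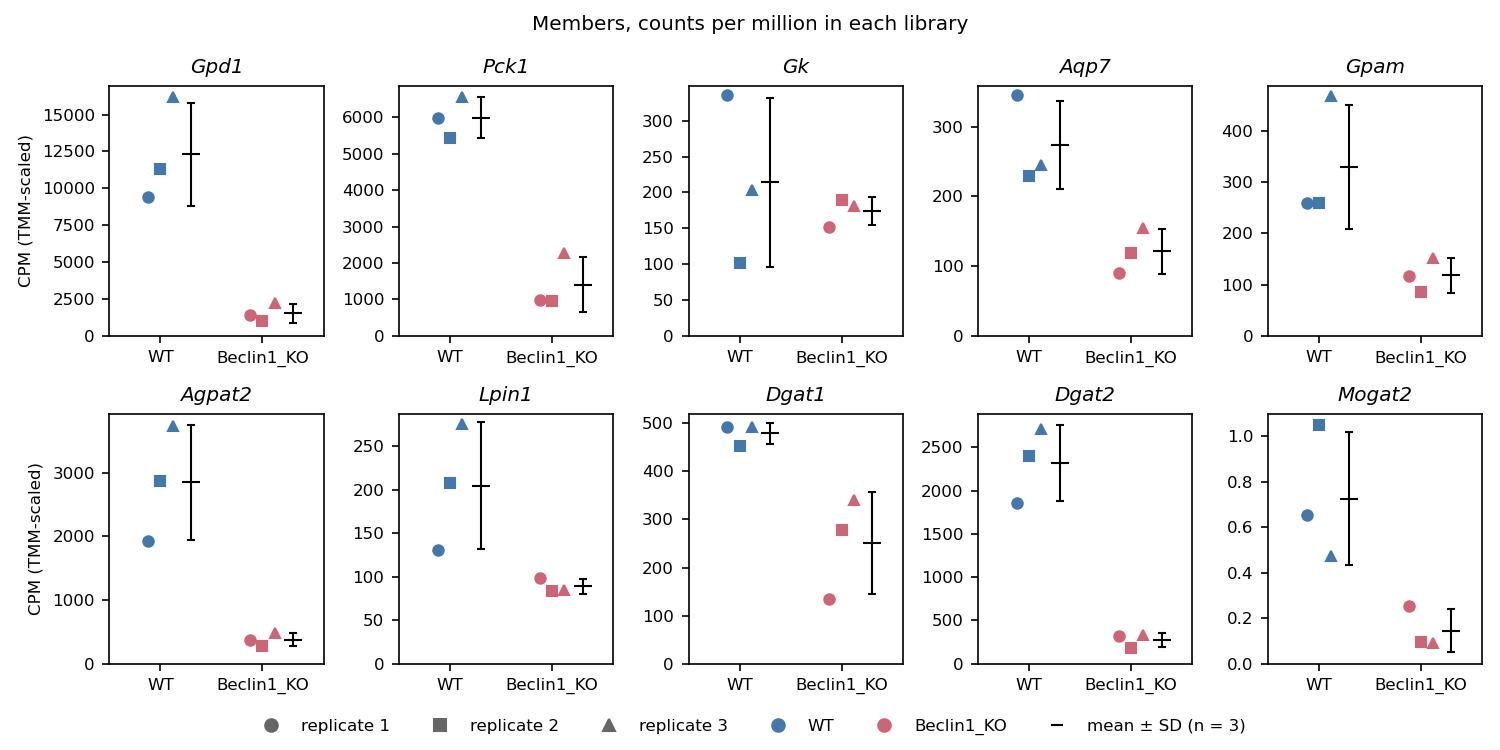
CPM, scaled by TMM, of the 10 genes in each of the 3 WT (blue) and 3 Beclin1_KO (red) libraries, with the mean and SD of each genotype beside the points and each vertical axis starting at 0. Points of the genotypes are apart for every gene except Gk, and Dgat1 spreads from 133 to 340 CPM in the knockouts.

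In WT tissue, on the FPKM scale, which divides by gene length and so allows genes to be compared, Gpd1 was highest at 3795 ± 838 (SD, n = 3), followed by Pck1 (1985 ± 144), Agpat2 (1554 ± 407), Dgat2 (890.3 ± 120.5) and Dgat1 (215 ± 15.7). Below them came Aqp7 (94.7 ± 26.6), Gpam (73.7 ± 22.5), Gk (42.7 ± 25.3) and Lpin1 (31.5 ± 9.51), and Mogat2 was last at 0.349 ± 0.151. The ranges of Pck1 and Agpat2 overlapped, although Pck1 was the higher of them in each of the 3 WT libraries. Those of each neighbouring pair from Aqp7 down to Lpin1 overlapped too, and the order of these pairs varied between libraries. The remaining neighbours were apart in all 3 WT libraries. In the knockouts Gpd1 (606 ± 241) and Pck1 (593 ± 305) overlapped, and Pck1 was the higher of them in replicates 2 and 3. Dgat1 (144 ± 62.2) and Dgat2 (135 ± 34.1) also overlapped there, whereas Dgat2 stood above Dgat1 in each WT library. Other neighbouring ranges that overlapped in the knockouts were those of Aqp7 (53.2 ± 14.4) and Gk (44.0 ± 6.62), and of Gk and Gpam (33.9 ± 8.73). Within each of the 3 knockout libraries Aqp7 was above Gk and Gk above Gpam. Lpin1 (17.6 ± 1.17) and Mogat2 (0.0887 ± 0.0534) came last.

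Of the 3 enzyme genes that supply glycerol 3-phosphate, Gpd1 and Pck1 had lower transcript levels. Gpd1 (Entrez Gene 14555, chromosome 15, 99717587 to 99725014, plus strand, GRCm38) encodes the cytosolic dehydrogenase that makes glycerol 3-phosphate from the glycolytic intermediate dihydroxyacetone phosphate. It had 9440, 11278 and 16172 CPM in WT and 1403, 971 and 2232 CPM in Beclin1_KO. The lowest WT library was thus well above the highest knockout. Gpd1 fell 8.01-fold (log2 fold change -3.002, SE 0.39, edgeR adjusted p = 0.00122).

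Pck1 (Entrez Gene 18534, chromosome 2, 173153073 to 173159274, plus strand) encodes cytosolic phosphoenolpyruvate carboxykinase, the entry enzyme of glyceroneogenesis, which makes the glycerol backbone from pyruvate rather than glucose. Its values were 5969, 5433 and 6565 CPM in WT and 987, 966 and 2266 CPM in Beclin1_KO. Knockout replicate 3 lay above the other two, yet below every WT library. Pck1 fell 4.26-fold (log2 fold change -2.09, SE 0.38, edgeR adjusted p = 0.00442), and its coefficient of variation was 9.45% in WT and 52.9% in the knockouts. The RefSeq promoter window of Pck1 (GRCm38.p6, chr2:173152823-173153122, plus strand, from 250 bases before to 50 bases after the start) is shown because a cyclic AMP response element in this promoter is textbook knowledge from the rat gene. Capitals mark the letters TTACGTCA, which begin 93 bases before the start, and the GC box GGGCGG, which begins 16 bases before it.
Pck1: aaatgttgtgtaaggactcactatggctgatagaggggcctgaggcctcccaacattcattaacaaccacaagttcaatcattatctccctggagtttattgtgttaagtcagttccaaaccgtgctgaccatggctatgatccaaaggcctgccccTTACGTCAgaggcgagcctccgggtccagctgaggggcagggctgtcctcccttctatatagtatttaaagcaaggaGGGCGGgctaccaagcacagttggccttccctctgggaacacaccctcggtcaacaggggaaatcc
On either strand TTACGTCA occurs in 0.499% of the 32851 windows of the table, GGGCGG in 35.7%, and the full palindrome TGACGTCA, which this window lacks, in 1.79%. A match of letters is a description and not a binding site.

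Gk (Entrez Gene 14933, chromosome X, 85701937 to 85776819, minus strand), which encodes glycerol kinase, did not follow the dehydrogenase and the carboxykinase. It had 336, 102 and 203 CPM in WT and 152, 189 and 181 CPM in Beclin1_KO. The knockout libraries all lay inside the WT range, which spanned a coefficient of variation of 55.0%, against 11.3% in the knockouts. The log2 fold change was -0.30 (SE 0.40, edgeR adjusted p = 0.582). Without WT replicate 1 the sign was the opposite, 0.16 (edgeR adjusted p = 0.715), and no direction is given for Gk. It was also the opposite on the log2(FPKM + 1) scale, at 0.20 (limma adjusted p = 0.695), where the median of all genes lies 0.32 higher. The promoter window of Gk (chrX:85776770-85777069, minus strand) is shown beside those of Pck1 and Agpat2 as that of a gene that did not pass. Capitals mark the E-box CACGTG, beginning 58 bases before the start, and 3 GC boxes read on the opposite strand as CCGCCC.
Gk: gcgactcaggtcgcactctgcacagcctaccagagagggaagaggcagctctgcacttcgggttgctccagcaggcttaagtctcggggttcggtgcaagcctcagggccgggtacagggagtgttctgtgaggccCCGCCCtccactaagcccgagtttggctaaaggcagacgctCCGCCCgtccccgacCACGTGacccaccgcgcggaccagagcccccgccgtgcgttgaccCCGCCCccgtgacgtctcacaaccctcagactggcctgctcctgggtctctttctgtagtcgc
CACGTG is present in 7.15% of all windows.

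Aqp7 (Entrez Gene 11832, chromosome 4, 41033074 to 41048237, minus strand) encodes the glycerol channel of adipocytes. Its values were 346, 229 and 245 CPM in WT and 89.7, 119 and 154 CPM in Beclin1_KO, with no overlap. Aqp7 fell 2.26-fold (log2 fold change -1.17, SE 0.25, edgeR adjusted p = 0.00828). The other glycerol channels were close to absent, with 0 counts of Aqp3 in the WT libraries and 14, 24 and 8 in the knockouts, and 2, 0 and 6 counts of Aqp9 in WT and 19, 71 and 92 in the knockouts. Aqp9, a channel best known from liver and leukocytes, passed as higher (edgeR adjusted p = 0.0192), although with so few WT counts it entered the test through the group in which it is high. Aqp7 still made up 98.7% to 99.3% of the summed FPKM of the 3 channels in each knockout library.

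The acylation genes other than Dgat1 fell between 2.30-fold and 8.41-fold. Gpam (Entrez Gene 14732, chromosome 19, 55067635 to 55127319, minus strand) encodes the mitochondrial glycerol phosphate acyltransferase, which commits acyl chains to glycerolipids. It had 259, 260 and 469 CPM in WT and 117, 85.1 and 152 CPM in Beclin1_KO. WT replicate 3 stood apart from the other WT libraries, and none came down to the knockout range. Gpam fell 2.79-fold (log2 fold change -1.48, SE 0.31, edgeR adjusted p = 0.00886).

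Agpat2 (Entrez Gene 67512, chromosome 2, 26593057 to 26604417, minus strand) encodes the lysophosphatidate acyltransferase whose loss causes congenital generalized lipodystrophy in people. It had 1934, 2876 and 3741 CPM in WT and 367, 278 and 486 CPM in Beclin1_KO. The lowest WT library was far above the highest knockout. Agpat2 fell 7.57-fold (log2 fold change -2.92, SE 0.33, edgeR adjusted p = 0.000691). Its promoter window (chr2:26604368-26604667, minus strand) is given as that of the gene with the largest fall among the 6 members that the RefSeq promoter table holds. Capitals mark GC boxes, a pair of which share 1 base and begin 42 and 37 bases before the start, while the third begins at base 25 after it.
Agpat2: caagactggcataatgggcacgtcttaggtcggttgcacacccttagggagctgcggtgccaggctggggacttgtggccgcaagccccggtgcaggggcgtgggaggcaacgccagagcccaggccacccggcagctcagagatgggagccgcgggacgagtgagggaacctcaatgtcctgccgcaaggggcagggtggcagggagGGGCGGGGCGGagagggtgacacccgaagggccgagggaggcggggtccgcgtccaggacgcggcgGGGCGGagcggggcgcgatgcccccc
The window is 72.0% G and C, against 52.0% for Pck1 and 65.7% for Gk. None of the 8 windows of the 6 genes held the sterol regulatory element core TCACNCCAC, which 1.24% of all windows hold, or the TATA box letters TATAAA, which 13.6% hold, and a site outside these windows or with other letters would not be seen. The CCAAT box, present in 37.4% of all windows, was found in 1 of the 8, a window of Gpam.

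Lpin1 (Entrez Gene 14245, chromosome 12, 16535669 to 16653903, minus strand) encodes lipin 1, the phosphatidate phosphatase that also acts as a nuclear coactivator. It had 130, 207 and 276 CPM in WT and 98.4, 83.2 and 84.9 CPM in Beclin1_KO. Values in WT spread over a coefficient of variation of 35.7%, and the knockouts lay close together below them. Lpin1 fell 2.30-fold (log2 fold change -1.20, SE 0.27, edgeR adjusted p = 0.00997). Without the library of each genotype highest in muscle markers, an alternative chosen after seeing the data, its log2 fold change was -1.27 and its edgeR adjusted p 0.0554.

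Dgat2 (Entrez Gene 67800, chromosome 7, 99153663 to 99182713, minus strand) and Dgat1 (Entrez Gene 13350, chromosome 15, 76502012 to 76512021, minus strand) encode unrelated enzymes that catalyse the same last step. DGAT2 is linked to newly made fatty acids, and DGAT1 to the re-esterification of fatty acids released from droplets or taken up. Dgat2 had 1852, 2397 and 2717 CPM in WT and 314, 185 and 329 CPM in Beclin1_KO. It fell 8.41-fold (log2 fold change -3.07, SE 0.29, edgeR adjusted p = 0.000348), a fall that differed from that of Gpd1 by less than the SE of either. Dgat1 had 493, 454 and 492 CPM in WT and 133, 277 and 340 CPM in Beclin1_KO, so its libraries did not overlap either. The WT libraries differed by a coefficient of variation of 4.63% and the knockouts by 42.4%, with knockout replicate 1 lowest. The log2 fold change of Dgat1 was -0.94 (SE 0.32), and its edgeR adjusted p of 0.0520 fell just short. Dgat1 passed with DESeq2 (adjusted p = 0.00827), which called 51.8% of all genes it tested, 24.3% as lower and 27.5% as higher. Over 17 alternatives it passed in 5, with adjusted p from 0.00827 to 0.135 and a negative sign throughout. In the authors' deposited table it was 1.91-fold lower (adjusted p = 0.00904), and 9 of the 10 genes had an adjusted p below 0.05, all 9 lower. Of all genes with an adjusted p there, 44.3% were below 0.05, 20.2% as lower. Gk was the exception.

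Mogat2 (Entrez Gene 233549, chromosome 7, 99219084 to 99238611, minus strand), an acyltransferase of monoacylglycerol best known from enterocytes, lies 36370 bases from Dgat2. It had 27, 47 and 20 counts in WT and 14, 6 and 6 in Beclin1_KO. These are very low counts, at 0.652, 1.05 and 0.475 CPM in WT and 0.254, 0.0936 and 0.0885 CPM in the knockouts. The fitted log2 fold change was -2.32 (SE 0.62, edgeR adjusted p = 0.0203). The call was lost without WT replicate 2 (log2 fold change -1.97, edgeR adjusted p = 0.0694), Beclin1_KO replicate 2 (-2.08, 0.0778) or Beclin1_KO replicate 3 (-2.06, 0.0621). Mogat1, the isozyme of the same step, was the more abundant of them and fell 19.5-fold, from 15.4 ± 4.78 to 0.785 ± 0.265 CPM (n = 3 each, log2 fold change -4.29, SE 0.37, edgeR adjusted p = 0.000263). Mogat1 carried 93.6% to 98.1% of the FPKM of both in WT and 81.8% to 94.3% in the knockouts.

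**Figure D2:**
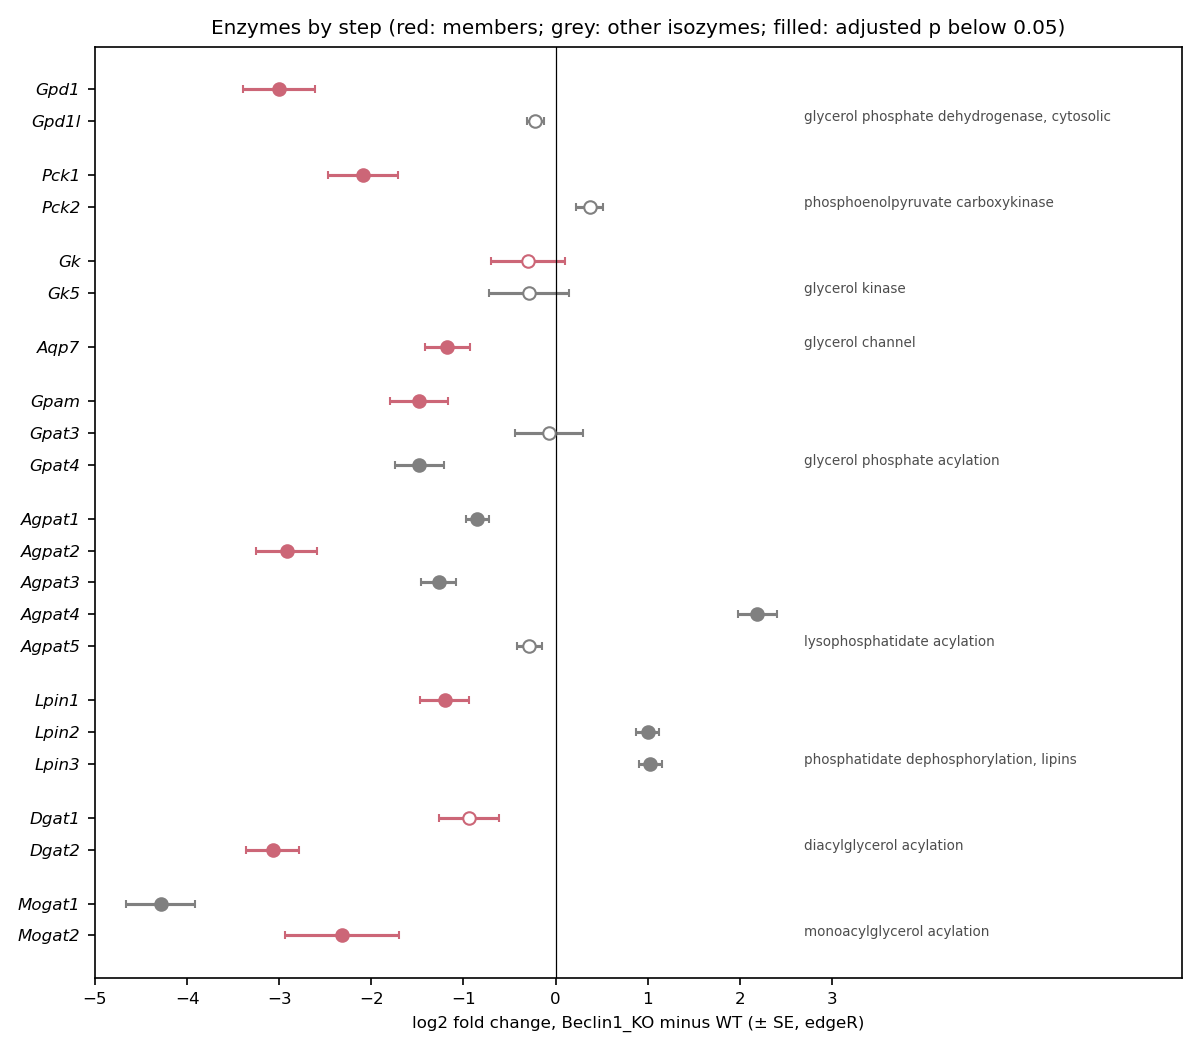
Log2 fold change of Beclin1_KO against WT with its SE (edgeR, 3 libraries per genotype) for the 10 genes (red) and other tested isozymes of each step (grey). Points are filled where the adjusted p is below 0.05. The glycerol channel Aqp9, which passed as higher with a log2 fold change of 3.85, is not drawn. The most negative of the 10 are Dgat2, Gpd1 and Agpat2, from -3.07 to -2.92. Above 0 lie Agpat4, Lpin2 and Lpin3, with filled points, and Pck2 at 0.37, with an open point.

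Ratios of a pair of enzymes within a library do not depend on how libraries are scaled, but in bulk tissue they can depend on its mix of cells. Comparisons were made for 6 pairs, each of a gene described here and another isozyme of its step. For Agpat2 this was Agpat1 and not the more abundant Agpat3. For 5 of the 6 pairs the ratio was lower in all knockout libraries than in any WT library. Each of the 5 gave an exact two-sided permutation p of 0.1, the smallest that 3 against 3 allow, or 0.12 adjusted over the 6 pairs. The share of other gene pairs without overlap was not computed. The log2 ratio of Dgat2 to Dgat1 counts was lower by a difference of -2.06 (SE 0.57) in Beclin1_KO. That of Agpat2 to Agpat1 differed by -2.06 (SE 0.37), and that of Lpin1 to Lpin2 by -2.13 (SE 0.38). Gpd1 to Gpd1l differed by -2.83 (SE 0.41) and Pck1 to Pck2 by -2.57 (SE 0.39). The ratio of Gpam to Gpat4, the endoplasmic reticulum isozyme, overlapped between the genotypes and differed by 0.05 (SE 0.37, exact permutation p = 0.8).

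As shares of the FPKM of a step, Dgat2 made up 76.4%, 81.9% and 82.6% of both DGAT transcripts in WT and 66.9%, 36.5% and 45.4% in Beclin1_KO. Knockout replicate 1 thus kept Dgat2 in the majority, whereas replicates 2 and 3 had more Dgat1. Agpat2 went from 84.8% ± 4.41 of the AGPAT transcripts to 60.6% ± 4.0 (SD, n = 3 each). Agpat3 was the second AGPAT transcript in both genotypes, at 10.2% ± 2.80 and 21.9% ± 1.76. The share of Agpat1 went from 4.53% ± 1.55 to 13.2% ± 2.21, and that of Agpat4 from 0.115% ± 0.0296 to 2.89% ± 1.09. Levels of Agpat1 and Agpat3 themselves fell 1.80-fold and 2.41-fold. Lpin1 went from 86.8% ± 5.20 of the lipin transcripts to 60.6% ± 1.24. Lpin2 and Lpin3 made up the rest and rose 2.00-fold and 2.04-fold (edgeR adjusted p = 0.00121 and 0.000938). The summed lipin FPKM, 35.9 ± 8.97 in WT and 29.1 ± 1.37 in Beclin1_KO, overlapped between genotypes. Which cells of the tissue the transcripts of each isozyme came from was not tested. Gpd1 and Pck1 made up at least 96.7% of their steps in every library. Gpat4 carried 65.6% ± 5.56 of the GPAT transcripts in WT and 61.4% ± 7.01 in Beclin1_KO, so the mitochondrial enzyme was the minor transcript of that step in both, and Gpat4 fell 2.79-fold (edgeR adjusted p = 0.0044).

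**Figure D3:**
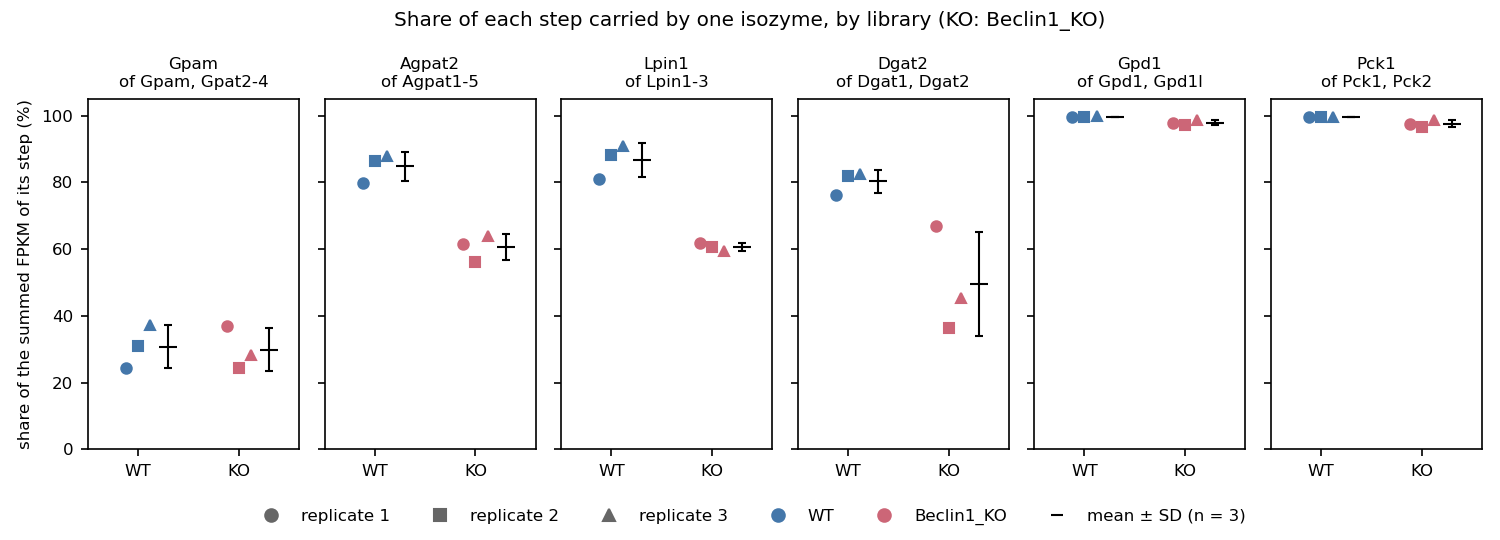
Share (%) of the summed FPKM of a step that the named isozyme makes up in each of the 3 WT and 3 Beclin1_KO libraries, with mean and SD. The shares of Agpat2, Lpin1 and Dgat2 are lower in every knockout library than in any WT library, that of Gpam overlaps, and Gpd1 and Pck1 stay at or above 96.7% throughout.

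Of 20 other glycerolipid synthesis genes, 17 were tested, of which 7 fell, 5 rose and 5 did not pass, with a median log2 fold change of -0.29. Among all genes tested 21.8% fell and 24.8% rose. Beside Mogat1 and Gpat4, the genes that fell were Pnpla3 (12.6-fold, edgeR adjusted p = 0.00134), a droplet-bound acylhydrolase, Bscl2, which encodes the droplet assembly protein seipin (2.44-fold), Agpat3 (2.41-fold), Agpat1 (1.80-fold) and the lipid phosphatase Plpp3 (1.39-fold). Those that rose were Agpat4 (4.57-fold, edgeR adjusted p = 0.000371), Lpin2, Lpin3, Plpp2 (1.71-fold) and Tmem68 (1.44-fold), a transmembrane acyltransferase. Agpat4 remained low, at 20.4 ± 4.13 CPM in Beclin1_KO against 4.47 ± 0.72 in WT. Gpat3, listed under its older symbol Agpat9, stood at 28.6 ± 7.67 and 27.2 ± 13.4 CPM (edgeR adjusted p = 0.887).

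Of 14 other genes of glycerol and glycerol phosphate supply, 12 were tested, of which 6 fell, 1 rose (Aqp9) and 5 did not pass. This stands against 21.8% lower and 24.8% higher among all genes tested. The median log2 fold change of the 12 was -0.98. Gpd2, the mitochondrial partner of Gpd1 in the glycerol phosphate shuttle, fell 4.38-fold, from 1073 ± 274 to 245 ± 97.4 CPM (edgeR adjusted p = 0.00242). Pyruvate carboxylase, Pcx, which feeds oxaloacetate to PEPCK, fell 2.94-fold (adjusted p = 0.00134). Lipe, Pnpla2 and Mgll, lipases that together break triglyceride down to glycerol, fell 2.80-fold, 2.40-fold and 2.38-fold. Pgp, a phosphatase of glycerol 3-phosphate, fell 2.03-fold. Gpd1l, the Gpd1 paralogue, stood at 54.9 ± 0.64 and 47.1 ± 3.91 CPM (edgeR adjusted p = 0.101), and mitochondrial Pck2 at 29.8 ± 2.76 and 38.5 ± 6.00 CPM (edgeR adjusted p = 0.0755).

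Among 19 regulators of triglyceride synthesis genes, 12 fell, 1 rose and 6 did not pass, against 21.8% lower and 24.8% higher among all genes tested. Their median log2 fold change was -0.91. Mlxipl, which encodes the carbohydrate sensor ChREBP, fell 3.83-fold from 704 ± 139 CPM (edgeR adjusted p = 0.00107), and Srebf1, the sterol regulatory element binding protein of lipogenesis, fell 2.91-fold from 409 ± 129 CPM (adjusted p = 0.0114). Insig1, which retains SREBP in the endoplasmic reticulum and is itself an SREBP target, fell 4.69-fold (adjusted p = 0.00356). Ppargc1b, a coactivator of SREBP, fell 6.13-fold (adjusted p = 0.00204). Usf1, an E-box binding factor, was the one that rose, 1.58-fold (adjusted p = 0.0254). The others that fell were Ppara (3.87-fold), Cebpa (3.10-fold), Cebpb (2.11-fold), Pparg (2.05-fold), Foxo1 (1.91-fold), Thra (1.88-fold), Mlx (1.74-fold) and Nr1h3 (1.52-fold). Creb1 (adjusted p = 0.295), Nr3c1 (0.0551) and Ppargc1a (0.751) were among those that did not pass by edgeR.

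General adipocyte genes were lower in the same libraries, and in bulk tissue fewer adipocytes and less RNA per adipocyte cannot be told apart. Of 10 adipocyte reference genes 8 fell and 0 rose, against 21.8% lower and 24.8% higher among all genes tested. Lep and Retn did not pass, and the median log2 fold change of the 10 reference genes was -1.29. The mean log2 CPM of the reference genes went from 8.06 ± 0.09 to 6.77 ± 0.11, a difference of -1.29. Set against this mean in the same library, Dgat2 was lower in Beclin1_KO by a difference of -1.81 on the log2 scale, Gpd1 by -1.76 and Agpat2 by -1.62, each without overlap between genotypes. Pck1 differed by -0.92 and Mogat2 by -0.81, with overlap, since knockout replicate 3 lay in the WT range for Pck1 and replicate 1 for Mogat2. Knockout replicate 3 had the lowest reference mean of the knockouts, 6.67 against 6.74 and 6.89 in replicates 1 and 2. The summed CPM of the reference genes was highest there, 9077 against 5633 and 7165. Where Pck1 stands in replicate 3 thus depends on how the reference genes are weighted. Gpam (-0.17), Aqp7 (0.10), Lpin1 (0.15) and Dgat1 (0.25) overlapped, and for Gpam, Aqp7 and Lpin1 the difference was smaller than the SD of either genotype. Gk stood 1.15 higher relative to the reference genes in Beclin1_KO, and the difference in Gk itself did not pass the test. Its highest WT library was at 0.44 and its lowest knockout library at 0.51. The reference mean itself differed by -1.29, so a gene with no change would also stand higher on this scale. The share of all genes without overlap on this scale was not computed. These are values without a test.

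**Figure D4:**
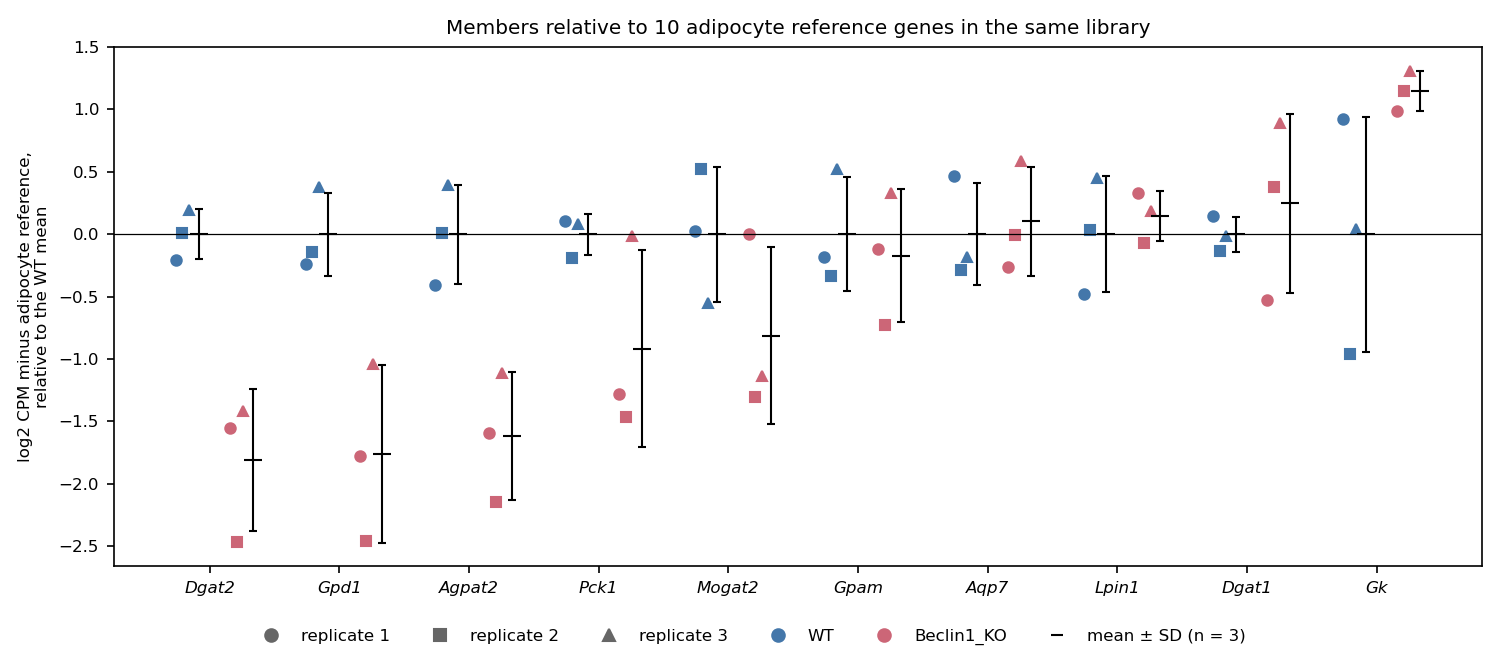
Log2 CPM of each of the 10 genes minus the mean log2 CPM of 10 adipocyte reference genes in the same library, drawn relative to the WT mean, with mean and SD of 3 libraries per genotype. Mean differences are -1.81 for Dgat2, -1.76 for Gpd1 and -1.62 for Agpat2, with Gpam, Aqp7, Lpin1 and Dgat1 near 0 and Gk at 1.15.

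Markers of other cells moved with the genotype as well. The counts below stand against 21.8% lower and 24.8% higher among all genes tested. All 12 macrophage markers rose (median 3.88), and their summed CPM was 281 to 323 in WT and 4514 to 7240 in Beclin1_KO. Of 8 fibroblast and progenitor markers 7 rose (median 2.55, summed CPM 1517 to 2250 and 7196 to 12110). Of 8 endothelial markers 6 fell and Vwf rose (median -0.64, summed CPM 1331 to 1557 and 709 to 904). None of 12 muscle markers passed by edgeR. Hepatocyte and enterocyte markers were included because Mogat2 and Pck1 are prominent in liver and gut. Of 9 tested 6 rose and 2 (Vil1 and Lgals4) fell, with a median of 4.35, or 3.79 with the 2 genes at 0 in all WT libraries put at a bound of 3 counts per WT library. Their summed CPM was 53.7 to 84.9 in WT and 30.2 to 57.8 in Beclin1_KO. Albumin, Alb, had 14, 3 and 24 counts in WT and 1686, 1192 and 656 in Beclin1_KO, and Vil1, a brush-border gene, went from 4.32 ± 0.23 to 0.215 ± 0.126 CPM. The part of these cell types in the changes of the 10 genes and of their isozymes was not tested.

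Genes with profiles most like those of Gpam, Dgat2 and Pck1 were sought among 11116 others with a mean of at least 5 CPM, as the smallest root mean square difference between log2 CPM profiles centred on their own mean over the 6 libraries. For Dgat2 they were Angptl8, a secreted lipoprotein lipase regulator (0.176), Traf4, a signalling adaptor (0.178), and Agpat2 (0.190). Nearest to Pck1 were Cidea, a droplet protein of brown fat (0.0956), Suclg1 of the citric acid cycle (0.145) and Prkar2b, a regulatory subunit of protein kinase A (0.147). For Gpam they were Cables1 (0.153), Mut, the methylmalonyl-CoA mutase (0.169), and Rmdn3 (0.172).

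Of the 10 genes, 5 overlap a gene on the opposite strand in GENCODE M21, and it is not given whether counting used the strand. Agpat2 overlaps the coding models Gm20532 and Egfl7, the latter an endothelial marker at 132 ± 20.96 CPM in WT and 78.3 ± 10.2 in Beclin1_KO. Gpam, Gpd1, Mogat2 and Gk overlap antisense or pseudogene models. How many of their reads come from those models was not tested.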

How the data were processed

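RNA was sequenced from 3 WT and 3 Beclin1_KO samples, grouped by their titles. The design text calls them biological replicates, without saying whether each is 1 animal, so p-values measure the spread between these samples. Per the labels' protocols, libraries were made with a stranded kit that selects polyadenylated RNA. The submitters' processing notes name build mm10, HISAT2 2.1.0, StringTie 1.3.4d, bcl2fastq 2.20.0, DESeq2 and Trimmomatic, without their roles. Per the file headers, the authors deposited raw read counts and FPKM per gene, log2-like values of unstated transformation (not used), a signed fold change score with its standard error, the mean signal of normalized counts, and p-values with adjusted p-values. Whether multiply mapped reads were counted is not given.

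Counts were tested with edgeR 4.0.16 (R 4.3.3, glmQLFit and glmQLFTest, robust). The filterByExpr filter left 15347 of 18507 genes, and all 10 genes described passed it. TMM factors were 0.828 to 0.935 in WT and 1.09 to 1.19 in Beclin1_KO. The fit was tested on simulated data. Fold changes are Beclin1_KO minus WT, adjusted over all genes tested. CPM uses TMM scaling, and log2 CPM a prior count of 2. No set test was run. Alternatives were other scalings, DESeq2 1.42.0, limma 3.58.1 (voom, and trend on FPKM with pseudocounts of 1 or 0.1, where 3 libraries reach an FPKM of 1), other filters, dispersion fitted without the robust option, a replicate block and leaving out each library. The members and lists were chosen with earlier results of these data known. The rule for named genes took the 10 genes, passing members of the pathway and regulator lists or the 4 with the smallest p, up to 4 markers per list, and 3 nearest profiles for Gpam, Dgat2 and Pck1. Genes named beside it (Gpat3, Gpd1l, Pck2, Creb1, Nr3c1, Ppargc1a, Aqp3, Lep, Retn, Egfl7, Gm20532) were chosen after their values were seen. List symbols were matched by symbol, and Gpat3 by Entrez Gene number. Positions are RefSeq's on GRCm38.p6, the assembly of mm10, strands those of GENCODE M21, and promoter windows RefSeq's, held for 6 of the 10 genes. Exact permutation tests used scipy 1.17.1.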

Additional observations from a re-analysis of the deposited data

How the results depend on the processing

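The count of the 10 genes that fell ranged from 7 to 9 over 17 alternatives, and 0 rose in any of them. Dgat2, Gpd1, Agpat2, Pck1, Gpam and Aqp7 passed as lower in all 17. Dgat1 passed with DESeq2 (log2 fold change -0.94), limma-voom (-1.06), a minimum of 1 CPM throughout one genotype (-0.93) and without Beclin1_KO replicate 1 or 3, with -1.22 to -0.63 over the fits that leave out a library. Mogat2 had -2.96 to -1.97 over those fits, and was not tested at 1 CPM or on the FPKM scale. The sign of Gk reversed on the log2(FPKM + 1) scale (0.20), on the log2(FPKM + 0.1) scale (0.21) and without WT replicate 1 (0.16), over a leave-one-out range of -0.64 to 0.16. Lpin1 did not pass without the library of each genotype highest in muscle genes (-1.27). In that fit 2054 genes fell, and 2860 rose, against 3340 and 3810. On the FPKM scale 1706 genes fell with a pseudocount of 1 and 1696 with 0.1, and 74.2% of calls were higher, against 53.3%. FPKM are not corrected for composition and lie 0.32 higher in the median log2 fold change. The ratio of Gpam to Gpat4 reversed without WT replicate 1 (-0.17) or Beclin1_KO replicate 1 (-0.19), over -0.19 to 0.27. Where not stated, the cause was not tested. Deviations of same-numbered samples had correlations of -0.31, 0.07 and 0.28, inside the range of -0.49 to 0.46 for differently numbered ones. With 3 samples per genotype this cannot decide whether replicate numbers pair the samples. With the replicate number as a block 8 of the 10 fell, and 3032 genes fell and 3371 rose. Of 370 values under alternatives, 353 were classed as the same. For fold changes this means the same sign and side of the threshold. For ratios it means the same sign and a move smaller than the spread. For values relative to the reference genes it means only a move smaller than the spread, whatever the sign. Those of Gpam, Lpin1, Dgat1 and Aqp7 changed sign in some alternatives and were still classed as the same. For counts of genes called it means a count within a set fold of the main one, not an equal count. Counts of 6 to 47 limit Mogat2.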
